A study of Homo sapiens with 4 samples.

Results

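The inhibitor of apoptosis genes BIRC2, BIRC3, BIRC6 and BIRC7 and the apoptosome gene APAF1 were taken by name from the deposited expression table, 5 of the 2864 genes with values in the part of the table at hand. The first 4 are the BIRC genes at hand apart from BIRC5, whose best known role is in mitosis, and BIRC8, and both of these are given beside them. The libraries came from A375, a human melanoma cell line. A375P was the untreated parental culture, and A375R was the strain made resistant in the laboratory by stepwise rising vemurafenib, an inhibitor of the kinase BRAF, and kept under the drug. A375+DMSO had received the solvent (1‰) and A375+VEM 2 μM vemurafenib, each for 48 h. Each of these 4 conditions had 1 library, and A375R is 1 selected strain, so no difference has a replicate check, no p-value is given, and drug, selection and culture cannot be told apart for a library. All 8 melanocytic marker genes that could check the cell type, such as MITF and MLANA, lie outside the part of the table at hand and were not analysed here. Of 6 blood cell markers, 5 stayed at or below a TPM of 0.395 in every library, while ADGRE1 reached a TPM of 4.50 for A375P, 19.1 for A375R, 13.1 for A375+DMSO and 16.9 for A375+VEM. Of these 5 genes BANK1, BLK and BTLA had 0 reads in A375P, BTLA also in A375R and AIF1 in A375+VEM. ADGRE1 made up nearly all of the summed level of these markers (4.76, 19.9, 13.6 and 17.4 TPM in the same order), and the part of such cells in the results was not tested.

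Cells that die by the mitochondrial route of apoptosis release cytochrome c, which binds the protein of APAF1 and lets it assemble into the apoptosome, the platform that activates caspase-9. Inhibitor of apoptosis proteins carry the BIR domain, a small zinc-binding fold, and restrain cell death at or below this step or at death receptors. The proteins of BIRC2 and BIRC3 (cIAP1 and cIAP2) are RING ubiquitin ligases that sit on TNF receptor complexes, favour the survival branch of TNF signaling and keep the non-canonical NF-kB pathway low. BIRC3 is itself a classical NF-kB target. BIRC6 encodes a very large ubiquitin-conjugating enzyme with a BIR domain that marks caspases and autophagy proteins for degradation, and BIRC7 (livin, ML-IAP) is a small RING-containing member known from melanoma and described as a target of the melanocyte factor MITF. XIAP and NAIP, further members of the family, were not analysed here.

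BIRC3 and BIRC2 are neighbours on the plus strand of chromosome 11. In hg19, the build named in the submitters' processing notes, BIRC3 spans 102188181 to 102210134 and BIRC2 spans 102217913 to 102249401, which leaves 7778 bp between them. Their promoter windows are shown since these neighbours carried most of the differences described here, and that of BIRC7 because of its link to MITF. The sequences are from RefSeq (GRCh38.p14, plus strand) and run from 250 bases before to 50 bases after a gene start. All 5 genes matched a window, and BIRC2 and BIRC6 have more than 1. Capitals mark matches to the NF-kB consensus of 10 letters in BIRC3 and to the E-box forms CACGTG and CATGTG, which MITF is known to bind, in BIRC7, whose NF-kB match is left in lower case. The BIRC2 window holds no match to either and has no capitals.
BIRC3, chr11:102317234-102317533: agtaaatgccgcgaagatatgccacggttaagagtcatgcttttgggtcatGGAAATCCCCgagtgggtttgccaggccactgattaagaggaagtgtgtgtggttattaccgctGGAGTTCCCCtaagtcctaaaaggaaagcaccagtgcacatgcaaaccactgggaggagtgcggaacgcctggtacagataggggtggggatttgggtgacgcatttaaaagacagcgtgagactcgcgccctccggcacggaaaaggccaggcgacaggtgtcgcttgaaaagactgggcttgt
BIRC2, chr11:102346964-102347263: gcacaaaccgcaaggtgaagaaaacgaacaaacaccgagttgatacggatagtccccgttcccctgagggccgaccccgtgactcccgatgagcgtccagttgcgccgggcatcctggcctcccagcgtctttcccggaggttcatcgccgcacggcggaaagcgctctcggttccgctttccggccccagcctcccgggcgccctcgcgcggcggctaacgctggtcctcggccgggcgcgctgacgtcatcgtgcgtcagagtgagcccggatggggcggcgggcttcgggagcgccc
BIRC7, chr20:63235655-63235954: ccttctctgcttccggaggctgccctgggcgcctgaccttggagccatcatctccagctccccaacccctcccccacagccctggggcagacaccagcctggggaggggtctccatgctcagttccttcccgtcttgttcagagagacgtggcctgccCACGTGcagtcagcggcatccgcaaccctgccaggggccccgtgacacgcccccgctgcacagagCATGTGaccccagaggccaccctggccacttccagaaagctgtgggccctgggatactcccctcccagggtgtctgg

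The BIRC3 window held 2 NF-kB matches, both on the minus strand, which begin 199 and 135 bases before the gene start as read on the plus strand. Of 35116 RefSeq promoter windows of this length, 11.3% held at least 1 such match on either strand and 2.04% held 2 or more. One of the windows of BIRC6 and the window of BIRC7 held 1 match each, and neither window of BIRC2 nor that of APAF1 held one. The motif first chosen, GGANNTTCC on both strands, matched no window of the 5 genes and 4.56% of all windows, so the consensus was added after the sequences had been seen. The E-boxes of BIRC7 began 92 (CACGTG) and 27 (CATGTG) bases before its start, and these forms occur in 7.26% and 11.1% of all windows. The BIRC3 window held 1 CATGTG as well, not set in capitals. The general E-box CANNTG, which includes both forms, was in 68.7% of windows. GC content was 53.3% in the BIRC3 window, 68.7% and 74.0% in the windows of BIRC2 and 67.0% in that of BIRC7, with a median of 58.7% over all windows. A match describes letters in a window and not a bound site.

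BIRC3 varied most among the members with a TPM above 2. Its reads numbered 1386 for A375P, 3445 for A375R, 502 for A375+DMSO and 384 for A375+VEM, over a gene length of 6911 bases. In TPM, the authors' unit of reads per base of gene length scaled to a fixed total per library, this was 23.4, 64.4, 9.08 and 7.0 in the same order. A375R stood above all other libraries and both 48 h cultures lay below both of the others. From the lowest to the highest library the difference was 9.20-fold (95% interval 8.28 to 10.2). The intervals given for levels and ratios are exact intervals on reads (Poisson for a level, Clopper-Pearson for a ratio) and cover counting error only. Of 1817 genes that reached a TPM of 1 in any library, 163 (8.97%) had a wider range on the scale of log2(TPM + 0.1).

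For BIRC2, A375P gave 3370 reads, A375R 2501, A375+DMSO 1555 and A375+VEM 1106. Its TPM was 92.2, 75.7, 45.6 and 32.7, the highest level among the members in every library but A375+VEM, where BIRC6 was higher. The order of the libraries differed from that of BIRC3 only in that A375P, not A375R, came first. Each step in this order was beyond counting error, and the ends were 2.82-fold apart (95% interval 2.64 to 3.02).

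BIRC6, on chromosome 2 from 32582096 to 32843966 (hg19, plus strand), had the most reads and, at 15703 bases, the longest gene length of the members. A375P gave a TPM of 40.3, A375R 34.3, A375+DMSO 26.8 and A375+VEM 35.6. It varied little, by 1.503-fold at most, and 80.7% of genes had a wider range. A375+VEM and A375R did not differ beyond counting error, at a ratio of 1.04 (95% interval 0.993 to 1.08). The lncRNA BIRC6-AS2 overlaps it on the other strand and had 0, 3, 6 and 2 reads in A375P, A375R, A375+DMSO and A375+VEM, against at least 3370 for BIRC6.

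BIRC7, on chromosome 20 from 61867235 to 61871859 (hg19, plus strand), was close to the limit of detection. There were 3 reads for A375P, 1 for A375R, 9 for A375+DMSO and 18 for A375+VEM, or a TPM of 0.256, 0.0944, 0.823 and 1.66. Only A375+VEM reached a TPM of 1. No pair of neighbours in this order differed beyond counting error. Between the ends, A375+VEM and A375R, the ratio was 17.6 with a wide 95% interval from 2.77 to 731. BIRC8 had 1 read in A375+VEM and 0 in the others, and 0 reads allow a TPM of up to 0.192 in A375R, 0.186 in A375+DMSO and 0.173 in A375P when 3 reads are taken as the limit.

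APAF1, on chromosome 12 from 99039078 to 99129211 (hg19, plus strand), gave 539 reads for A375P, 668 for A375R, 539 for A375+DMSO and 742 for A375+VEM. Its TPM was 8.75, 12, 9.37 and 13.0. The libraries under vemurafenib were both above both libraries without it. Within each of these pairs of libraries the levels did not differ beyond counting error, at a ratio of 1.08 (95% interval 0.974 to 1.204) between A375+VEM and A375R and 1.07 (95% interval 0.949 to 1.21) between A375+DMSO and A375P. Among the members APAF1 had the narrowest range, 0.57 on the log2 scale, and 82.3% of genes had a wider one. ANKS1B overlaps it on the other strand with 33, 40, 47 and 49 reads in A375P, A375R, A375+DMSO and A375+VEM. Whether reads were counted by strand, and how reads that fit both BIRC2 and BIRC3 were counted, is not given in the sources used here.

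**Figure D1:**
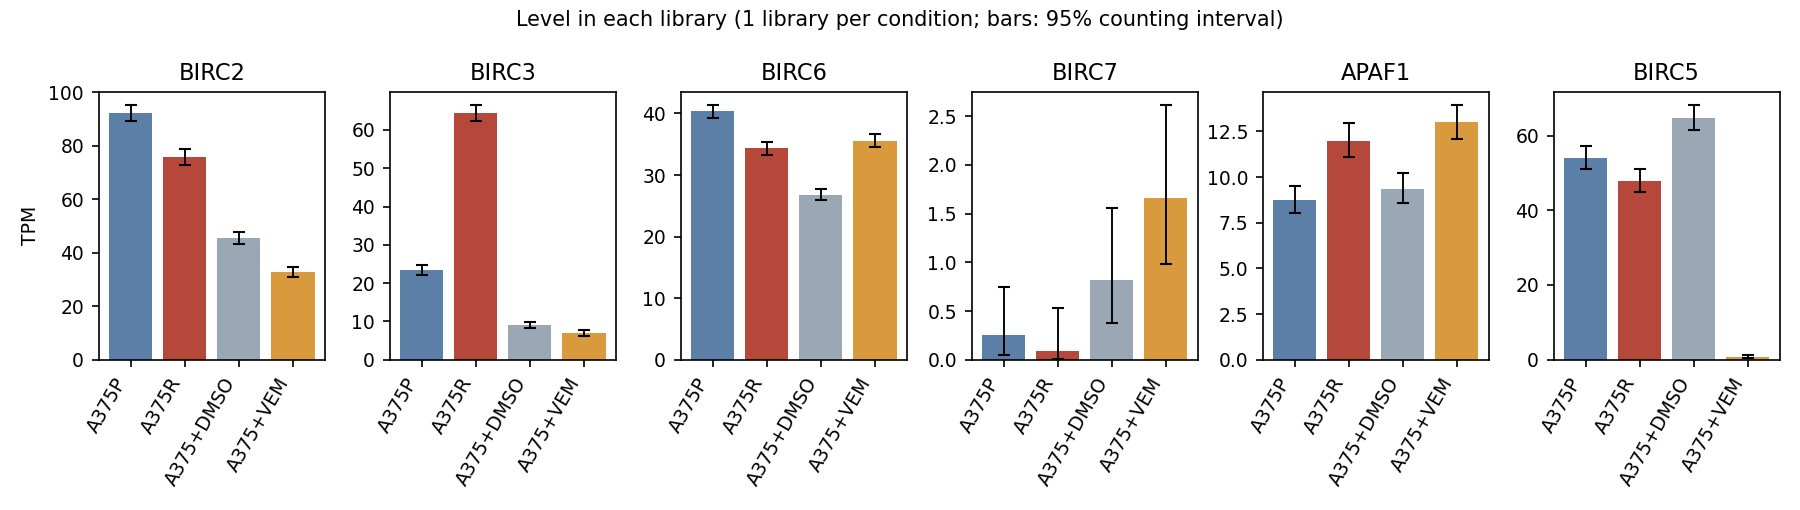
TPM (y axis, from 0, a separate scale per gene) of the 5 members and of BIRC5 in A375P, A375R, A375+DMSO and A375+VEM (x axis, 1 library each), with exact 95% Poisson intervals on the reads. BIRC3 peaks in A375R at 64.4, BIRC2 is highest in A375P at 92.2, APAF1 spans 8.75 to 13.0, and BIRC5 is at 0.840 in A375+VEM alone.

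Within a library, where gene length is accounted for and depth cancels, the level of BIRC2 relative to BIRC3 was 3.94 in A375P (95% interval 3.70 to 4.20), 5.02 in A375+DMSO (4.54 to 5.56) and 4.67 in A375+VEM (4.15 to 5.25). In A375R it was 1.18 (1.12 to 1.24). A375R was thus the library in which these neighbours were nearly level, and its interval overlapped none of the others. BIRC3 made up 36.9% of the summed TPM of BIRC2, BIRC3, BIRC6 and BIRC7 in A375R, 15.0% in A375P, 11.0% in A375+DMSO and 9.10% in A375+VEM. In A375+VEM the largest share was that of BIRC6, at 46.3%. The summed TPM of the 4 genes was 156.2 (A375P), 174.6 (A375R), 82.3 (A375+DMSO) and 76.9 (A375+VEM). Relative to APAF1 this sum was 17.9, 14.5, 8.78 and 5.92 times as high in the same order. A375P and A375R lay above both 48 h cultures in this measure. It was also lower in A375R than in A375P and lower in A375+VEM than in A375+DMSO. The parts of drug, selection and culture in these values were not tested.

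**Figure D2:**
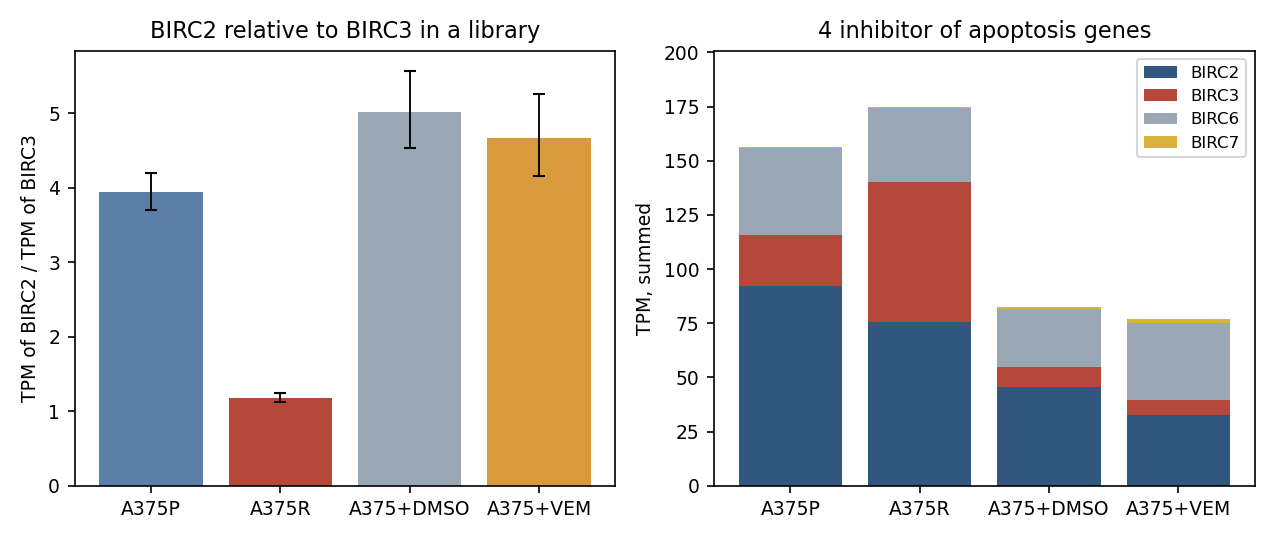
Left, TPM of BIRC2 divided by TPM of BIRC3 (y axis) in each library (x axis), with exact 95% intervals on the reads; right, TPM (y axis) of BIRC2, BIRC3, BIRC6 and BIRC7 stacked per library. The ratio is 1.18 in A375R and between 3.94 and 5.02 in the other libraries, and the stacks of both 48 h cultures, at 82.3 and 76.9, are below those of A375P (156.2) and A375R (174.6).

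To ask what goes with lasting resistance, A375R was compared with A375P. Genes whose (TPM + 0.1) differed by over 1.5-fold were counted as higher or lower, provided that either library of the comparison reached a TPM of 1. Log2 ratios in the text are on that scale, where low genes move less than in TPM, while folds and ratios with intervals are of TPM alone. Of the 5 members 4 were compared, and BIRC3 was past the threshold, at 2.75-fold higher (95% interval 2.58 to 2.93, log2 ratio 1.46). In this comparison 44.3% of 1689 genes were past 1.5-fold, 26.8% higher and 17.5% lower, and nothing about the members is read from 1 of 4. Of the genes compared, 120 had a larger log2 ratio than BIRC3. BIRC2 was at 0.822 of its level in A375P (95% interval 0.780 to 0.865), BIRC6 at 0.852 (0.818 to 0.887) and APAF1 at 1.37 (1.22 to 1.54). BIRC7, with 1 and 3 reads, did not reach the minimum TPM. The median log2 ratio of the 4 was 0.11, and that of all genes was 0.10.

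The acute response was addressed by A375+VEM against A375+DMSO. All 5 members were compared, and BIRC7 was past the threshold, with 18 against 9 reads and a ratio of 2.01. Since its 95% interval (0.859 to 5.09) included 1, the difference was not detectable with so few reads. The background was 46.2% of 1784 genes past 1.5-fold, 26.5% higher and 19.7% lower. BIRC2 was at 0.716 of its level with DMSO (95% interval 0.663 to 0.774) and BIRC3 at 0.770 (0.673 to 0.881). BIRC6 was at 1.33 (1.27 to 1.39) and APAF1 at 1.39 (1.24 to 1.55). With library sizes from edgeR's TMM or a median ratio of 1 in place of the authors' scaling, BIRC2 passed 1.5-fold downward, at log2 ratios of -0.63 and -0.5855 against -0.48. With DESeq2 size factors it stayed just short of the threshold, at -0.5845. The median log2 ratio of all genes in this pair was 0.11 with the authors' scaling and -0.05 with TMM, and the share of higher genes among those past 1.5-fold was 57.3% and 46.8%. The median log2 ratio over the 5 members was 0.41, but 0.02 without BIRC7, which was compared through A375+VEM alone.

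BIRC5 (survivin), a subunit of the chromosomal passenger complex that guides chromosome segregation, differed far more than BIRC2 or BIRC3 in the acute pair. It had 1398 reads in A375+DMSO and 18 in A375+VEM, a ratio of 0.0130 (95% interval 0.00766 to 0.0206), with 1252 in A375P and 1001 in A375R. Its log2 ratio of -6.11 was the lowest of the 1784 genes compared. Of 9 cell division genes, BIRC5 included, 8 were lower in A375+VEM than in A375+DMSO and the other, BUB3, was at -0.56 (lower too with each of the 3 other scalings), with a median of -4.85 against 0.11 over all genes. After BIRC5 the lowest were ASPM (-5.82), a spindle pole protein, BUB1B (-5.80), of the spindle checkpoint, and the mitotic kinase AURKB (-5.21). Fewer dividing cells and less of these RNAs per cell cannot be told apart in bulk libraries. Among the members none fell past 1.5-fold with the authors' scaling, and the part of the change in cell division in their values was not tested.

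The libraries without vemurafenib, A375P and A375+DMSO, also differed in these genes. A375+DMSO was lower than A375P in BIRC3, at a ratio of 0.388 (95% interval 0.350 to 0.430), in BIRC2, at 0.494 (0.465 to 0.525), and in BIRC6, at 0.665 (0.637 to 0.695). These were 3 of the 4 members compared, all lower, beside a background of 45.7% of 1720 genes past 1.5-fold, 26.8% higher and 18.9% lower. BIRC6 was just inside the threshold, at a log2 ratio of -0.586, and left it with a pseudocount of 1. APAF1 was at 1.07 (0.949 to 1.21), with no difference detectable. The members' median log2 ratio was -0.80 and that of all genes 0.09.

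The size of the differences in A375R depended on the control. Against A375+DMSO, BIRC3 was 7.09-fold higher (95% interval 6.45 to 7.80) and BIRC2 1.66-fold higher (1.56 to 1.77), while BIRC2 lay below its level in A375P. BIRC6 and APAF1 were both at 1.28 (1.22 to 1.34 and 1.14 to 1.44). The background in this comparison was lower, at 20.5% of 1702 genes past 1.5-fold, 10.5% higher and 9.99% lower, with 2 of 4 members higher. Of all genes compared, 5 had a larger log2 ratio than BIRC3 at 2.81. They were ATP6V0A4 (3.61), BCL2A1 (3.12), ADGRF1 (3.07), the lncRNA C15orf54 (3.06) and BRINP2 (2.86), which are named since they are few, after their values had been seen. The comparisons of A375R with A375P and of A375+DMSO with A375P share A375P, and those of A375R and A375+VEM with A375+DMSO share A375+DMSO, so they are not independent. BIRC3 was higher in A375R from either control, but both comparisons rest on the same A375R library. BIRC7, with 9 reads in A375+DMSO and 1 in A375R, reached a TPM of 1 in neither and was not compared. Its TPM ratio was 0.115, with a wide 95% interval (0.00262 to 0.828) that did not include 1.

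**Figure D3:**
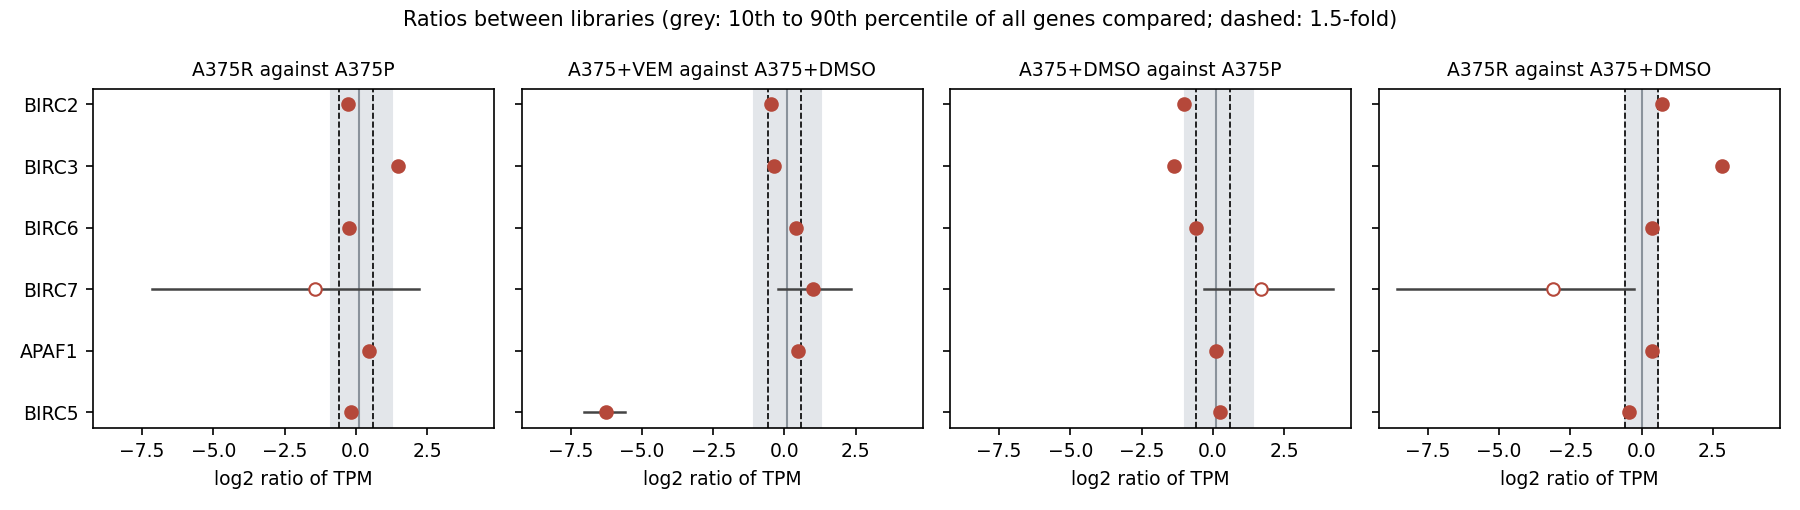
Log2 ratio of TPM (x axis) of the 5 members and BIRC5 (rows) in 4 comparisons between libraries, with exact 95% intervals on the reads; open points did not reach a TPM of 1 in either library. The grey band spans the outer deciles of all genes compared on log2(TPM + 0.1), from -0.87 to 1.28 in A375R against A375P, the grey line is their median and dashed lines mark 1.5-fold. BIRC3 lies to the right of the band against A375P (2.75-fold) and against A375+DMSO (7.09-fold), and BIRC5 far to the left in the acute pair.

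The other genes of cell death and of the pathways that border on these members were read from lists chosen with earlier results of these data known. Their counts stand beside the shares of all genes past 1.5-fold already given, 44.3% in A375R against A375P, 46.2% in the acute pair, 45.7% in A375+DMSO against A375P and 20.5% in A375R against A375+DMSO. On the side of the apoptosome, the list held 13 genes, the 5 members among them. Between A375R and A375P 10 of them were compared, and with the authors' scaling 2 were higher and none lower. The median log2 ratio was -0.02 against 0.10 over all genes. The higher ones were BIRC3 and APIP, a methionine salvage enzyme that also binds APAF1, at a log2 ratio of 0.60, which was no longer past 1.5-fold with a median ratio of 1, TMM or DESeq2 size factors. With each of these scalings 1 gene of the list was higher and 1 was lower. AVEN, which binds APAF1 and restrains it, was at 0.40, ACIN1, a nuclear caspase substrate, at -0.55, and AIFM1, the mitochondrial apoptosis-inducing factor, at 0.14. In the acute pair 2 of 12 were higher (BIRC7 and AIFM3, the latter with 34 against 19 reads) and BIRC5 was lower, with a median of 0.39 against 0.11. With a median ratio of 1 or TMM factors 2 of the 12 were lower. Both higher genes were compared through A375+VEM alone, and without them the median was 0.32. The 95% interval of AIFM3 (0.999 to 3.34) included 1, as did that of BIRC7, and neither was past the threshold with a pseudocount of 1, a minimum TPM of 5 or at 2-fold, where BIRC5 alone of this list was. AIFM1 was at 0.55 and APIP at 0.53, both short of the threshold. In A375+DMSO against A375P 1 of 10 was higher (APIP at 0.78) and 3 were lower, namely BIRC3, BIRC2 and BIRC6, and in A375R against A375+DMSO the 2 that were higher were BIRC3 and BIRC2.

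The BCL2 family controls the release of cytochrome c upstream of APAF1. Of 17 genes 14 were compared in each comparison. In A375R against A375P 4 were higher and 4 lower, with a median log2 ratio of 0.10, the same as that of all genes to this precision. BCL2A1, a survival protein of the family and a target of NF-kB and MITF, gave 62 reads for A375P, 274 for A375R, 32 for A375+DMSO and 61 for A375+VEM. Its log2 ratio of 2.28 was the highest of the list, followed by BIK (1.11), BMF (0.95) and BAD (0.68, under 1.5-fold with a median ratio of 1), which code for death-promoting proteins of the BH3-only class. BCL2 (-1.01), BAK1 (-0.94), BBC3 (-0.90) and BAX (-0.90) were lower. In the acute pair 4 were higher and 4 lower, with a median of -0.13 against 0.11. BMF (5.05) and BCL2L11 (1.63), both BH3-only genes, were at the upper end, with BCL2A1 at 0.92 and BAX at 0.59 (under 1.5-fold with each of the 3 other scalings), and BCL2 (-2.58), BIK (-1.55), BCL2L1 (-1.32) and BID (-0.66) at the lower. BIK had 9 reads in A375+VEM against 28 in A375+DMSO, with a wide 95% interval of the ratio (0.134 to 0.706). With a minimum TPM of 5 neither BIK nor BCL2 was compared in this pair. In A375+DMSO against A375P 2 were higher and 6 lower with a median of -0.37, and 7 were lower with each of the 3 other scalings. The higher ones were BMF (1.06) and BAD (0.73), and BCL2 (-1.29), BAK1 (-1.14), BBC3 (-1.03) and BAX (-1.02) were the furthest down. In A375R against A375+DMSO BCL2A1 (3.12) and BIK (1.32) were higher and none was lower, with a median of 0.13 against 0.02.

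In the NF-kB list of 11 genes, which includes BIRC2 and BIRC3, 3 of 9 compared were higher in A375R than in A375P and BCL2 was lower, with a median log2 ratio of 0.35 against 0.10. These 4 of 9 past the threshold are near the background of 44.3%, and the 3 higher near that of 26.8%. BCL2A1 and BIRC3 stood at the top, followed by BCL3, a nuclear partner of NF-kB, at 0.81. BCL10, an adaptor of NF-kB activation, was at 0.37, ATM at 0.35 and BTRC, which targets the inhibitor of NF-kB for degradation, at -0.34. Against A375+DMSO 4 of 9 were higher in A375R, namely BCL2A1, BIRC3, BIRC2 and BCL10 (0.65), none was lower, and the median was 0.45 against 0.02. In A375+DMSO against A375P none was higher and 4 were lower, namely BIRC3, BCL2, BIRC2 and BCL2A1, with a median of -0.56 against 0.09. With each of the 3 other scalings 6 of the 9 were lower. In the acute pair BCL2A1 was higher, BCL2 and BCL2L1 were lower, and the median was -0.07. With a median ratio of 1 or TMM factors 3 of the 9 were lower. BCL2A1 and BIRC3 both peaked in A375R and were past 1.5-fold downward from A375P to A375+DMSO, but in the acute pair they lay on different sides, at 0.92 and -0.37.

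APAF1 is a known target of p53. Of 8 p53 targets, APAF1 included, none was higher and 4 were lower in A375R than in A375P, with a median log2 ratio of -0.67 against 0.10. They were BTG2 (-2.31), AEN (-0.92), BBC3 and BAX. APAF1 was at 0.45, the highest of the 8. In A375+DMSO against A375P 5 were lower, these 4 and ASCC3, with a median of -0.91, while APAF1 was at 0.10. With each of the 3 other scalings 6 of the 8 were lower. In the acute pair BAX (0.59) was higher with the authors' scaling but with none of the 3 others, and AEN (-1.09) was lower, with APAF1 at 0.47 and a median of 0.04. With TMM factors 2 of the 8 were lower. In A375R against A375+DMSO AEN (1.05) and ATF3 (0.68) were higher and none lower, with APAF1 at 0.35 and a median of 0.41.

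BIRC7 belongs to a list of 7 MITF targets. In the acute pair 4 were higher, ASAH1, an enzyme of ceramide breakdown, at 1.02, BIRC7 at 0.93, BCL2A1 at 0.92 and, with the authors' scaling alone, the phosphatase ACP5 at 0.65, and BCL2 and BEST1 (-0.62, not past 1.5-fold with a pseudocount of 1) were lower. For BIRC7 the limits given above hold, its interval including 1. The median was 0.65, and 0.33 without BIRC7, against 0.11 over all genes. In A375R against A375P BIRC7 was not compared, and of the other 6 BCL2A1 was higher and ASAH1 (-1.02) and BCL2 lower, with a median of 0.40. In A375+DMSO against A375P ACP5 (0.88), BEST1 (0.85) and APEX1 (0.69) were higher and BCL2, ASAH1 and BCL2A1 lower, with a median of -0.08, and in A375R against A375+DMSO only BCL2A1 of 6 was past the threshold, with a median of -0.15. ASAH1 was thus at a similar TPM in A375P (32.4) and A375+VEM (32.9), and lower in A375R (15.9) and A375+DMSO (16.2).

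**Figure D4:**
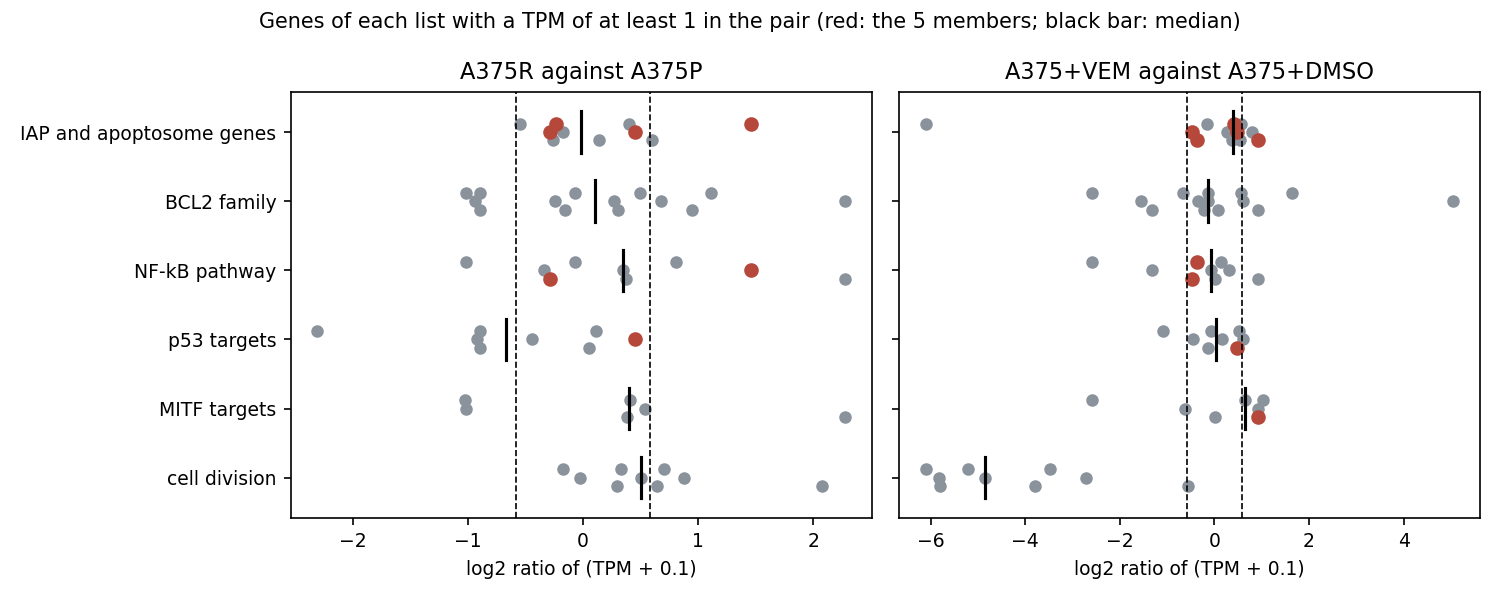
Log2 ratio of (TPM + 0.1) (x axis) of genes in 6 lists (rows) in A375R against A375P (left) and A375+VEM against A375+DMSO (right), for genes that reached a TPM of 1 in either library of the pair. Red points are members, grey points other genes, black bars list medians and dashed lines 1.5-fold, with a separate scale on each x axis; cell division genes have a median of -4.85 in the acute pair, and BIRC3 lies at 1.46 on the left and -0.37 on the right.

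The cell division list, with BIRC5, had 4 of 9 genes higher in A375R than in A375P (ASPM at 2.08, ANLN at 0.88, AURKB at 0.70 and, with the authors' scaling alone, BUB1 at 0.64), a median of 0.50 and none lower. In A375+DMSO against A375P 5 were higher with a median of 0.59, led by ASPM (2.17), AURKB (0.81), BUB1 (0.69) and AURKA (0.69), while ANLN was past the threshold with the authors' scaling alone, and in A375R against A375+DMSO none was past the threshold, with a median of -0.06. Of the blood cell markers only ADGRE1 could be compared. It was higher in A375R (2.06) and in A375+DMSO (1.52) than in A375P and stood at 0.37 in the acute pair and at 0.55 in A375R against A375+DMSO.

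The genes whose course over the 4 libraries lay nearest to each member were found among 1646 protein-coding genes, by the Euclidean distance of log2(TPM + 0.1) centred on each gene's own mean, a description over 4 points. BMP2, a secreted growth factor, was nearest to BIRC3 (distance 0.298), whose TPM was 31.6 for A375P, 76.9 for A375R, 14.2 for A375+DMSO and 8.71 for A375+VEM. ARHGAP22 (0.507) and C6orf58 (0.521) followed. C6orf58 reached a TPM of 1 in A375R alone (1.29) and was at 0.104 in A375+DMSO and 0.105 in A375+VEM, close to the added 0.1. C2CD2L (0.181), ATP2C2 (0.219) and the transcription factor gene ATF1 (0.251) were nearest to BIRC2. The closest for BIRC6 were C7orf26, C8orf76 and the receptor gene ACVR1 (0.103 to 0.113), and for APAF1 BRWD3, C11orf74 and C5AR1 (0.0615 to 0.0892). For BIRC7 they were B3GALT2 (0.193), ARRDC4 (0.361) and C21orf140 (0.469). ARRDC4 had a TPM of 6.80, 2.67, 14.2 and 32.1 in A375P, A375R, A375+DMSO and A375+VEM. That is the order of libraries of BIRC7, but ARRDC4 was picked for its nearness, so nothing is read from it. The course of BIRC7 rests on 1 to 18 reads per library, with no neighbouring step beyond counting error. BIRC7 and B3GALT2 reached a TPM of 1 in A375+VEM alone. In A375R B3GALT2 and C21orf140 were at 0.109 and 0.134, close to the added 0.1.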

How the data were processed

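Total RNA was sequenced from 1 library for each of the 4 conditions. The authors deposited 1 table with whole-number read counts and a TPM per gene and library. Their TPM is the count over gene length, scaled to the whole library. The submitters' processing notes name HISAT2, HISAT, TopHat2, Bowtie2 and hg19, without roles or versions. The counting program is not given in the sources used here. The table at hand holds 2864 genes, and 1 row without values was left out. They carry 2054277 (A375P), 1963230 (A375R), 1891215 (A375+DMSO) and 1932550 (A375+VEM) reads, or 8.48% to 8.94% of a library's TPM, so these totals are not depths.

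Members and gene lists were chosen with earlier results of these data known. Libraries were compared by the ratio of (TPM + 0.1) with a threshold of 1.5-fold, for genes that reached a TPM of 1 in either library. The gene length used was that of the authors' table. Intervals at 95% are exact (Clopper-Pearson for ratios, Poisson for levels), and PCR copies make reads less than independent, so they cover counting error only. The genes named are the members, BIRC5, BIRC8, the genes of each list past 1.5-fold (the 4 furthest where more were), some other list members for contrast, chosen after their values were seen, and the 3 nearest profiles per member. No test across genes was run. The ratio step was tested on simulated data. Protein features were not analysed here. Alternatives were pseudocounts of 1 and 0.01, no minimum TPM, a minimum of 5, a threshold of 2-fold, a median ratio of 1, edgeR's TMM factors and DESeq2's size factors, with the NF-kB consensus and acute medians without BIRC7 or AIFM3 chosen after seeing the data. Scaling used edgeR 4.0.16 and DESeq2 1.42.0 in R 4.3.3, and all else pandas 2.3.3, scipy 1.17.1, matplotlib 3.10.9 and numpy 2.4.6 in Python 3.11.15.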

Additional observations from a re-analysis of the deposited data

Results flagged for a closer look

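BIRC3 and BIRC6 lay on different sides of 0 in the resistant and the acute pair, with 1 library per condition, so that no test of this contrast was made. The log2 ratio of BIRC3 was 1.46 in A375R against A375P and -0.37 in A375+VEM against A375+DMSO. For BIRC6 it was -0.23 and 0.41, neither past 1.5-fold. The values of BIRC7 were -0.87 and 0.93, on 1 to 18 reads per library, but it was not compared in the resistant pair, and both of its intervals included 1, so neither difference was detectable. Against A375+DMSO, BIRC6 in A375R was at 0.35, the same side as in A375+VEM, so its sides depend on the control.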

How the results depend on the processing

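BIRC3 was past 1.5-fold and higher in A375R under every alternative run, at log2 ratios of 1.36 to 1.46 against A375P and 2.70 to 2.82 against A375+DMSO. In the acute pair the count of members past the threshold went from 1 to 0 with a pseudocount of 1, a minimum TPM of 5 or a threshold of 2-fold, each of which removes BIRC7, and to 2 with a median ratio of 1 or TMM factors, which add BIRC2. Against A375P it was 2 in A375R without the minimum TPM, which admits BIRC7, and against A375+DMSO it was 1 at 2-fold, BIRC3. In A375R against A375+DMSO it was 3 without that minimum (2 higher, BIRC7 lower). In A375+DMSO against A375P it was then 4 (BIRC7 higher, 3 lower). Without the minimum TPM, which admits all 2864 genes, 43.2% were past the threshold in A375R against A375P (702 higher, 535 lower), 44.8% in the acute pair (746, 536), 44.2% in A375+DMSO against A375P (735, 531) and 28.6% in A375R against A375+DMSO (388, 430). At 2-fold the same shares were 22.2% (248, 127), 26.4% (273, 198), 26.0% (286, 161) and 8.64% (72, 75), and with a minimum TPM of 5 the last was 15.4% (131, 76). No member that was past the threshold changed sign under an alternative. Of 121 log2 ratios of members under alternatives, 106 stayed within their counting interval. Those with another minimum TPM or none could not move, since that minimum does not enter the ratio. The 15 that left the interval all came from a median ratio of 1, TMM or DESeq2 size factors. Of 224 counts of list genes 198 stayed within 1.5 times. The NF-kB matches of BIRC3 went from 0 to 2 with the consensus. No paired analysis was possible because each condition has 1 library, and none could be left out for the same reason. Low reads limit BIRC7.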
